A study of Homo sapiens with 2 samples.

Results

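The genes of HLA class I antigen presentation were described in HSC-3 cells treated with FIN56. The 9 genes were chosen by symbol for their roles: the heavy chains HLA-B, HLA-C, HLA-E and HLA-F, the light chain B2M, the peptide transporter subunits TAP1 and TAP2, the loading factor TAPBP, and the transcriptional coactivator NLRC5. The choice was made with earlier results of these data known. All 9 were found, each as a single row, among the 60616 genes listed. The set does not hold every class I locus. HSC-3 is an established line of human tongue squamous cell carcinoma, and FIN56 is a compound used to induce ferroptosis, an iron-dependent death of cells through peroxidation of their lipids. One group was HSC-3 treated with 1 µM FIN56 for 48 h, and the other was HSC-3 given 0.1% DMSO as the vehicle, for which the labels give no time. RNA sequencing gave 1 library per group, with 70184517 expected counts for DMSO and 73062209 for FIN56. No difference therefore has a replicate check, and no test between the groups was possible.

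Class I molecules carry peptides from proteins made inside the cell to its surface, where CD8+ T cells read them. Proteasomes cut the proteins, the TAP1/TAP2 transporter moves the peptides into the endoplasmic reticulum, and TAPBP (tapasin) holds empty class I molecules at the transporter while they are loaded. The heavy chain is stable at the surface only with B2M (beta-2 microglobulin) and a peptide. Interferons, NF-κB and NLRC5 are known to raise transcription of these genes, and loss of class I is a known route by which head and neck tumors escape T cells.

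Classical heavy chain and light chain transcripts were higher in the FIN56 library, transporter transcripts were slightly higher, and those of TAPBP and NLRC5 were lower. The main measure was the FPKM ratio, the deposited FPKM (fragments scaled by effective gene length and by library size) in FIN56 divided by that in DMSO. HLA-B was the only one of the 9 genes at a ratio of 1.5 or more, the fold threshold the study applies, and none lay at 1/1.5 or less. Over the 24454 genes above 0 FPKM in both libraries, 14.7% reached 1.5 and 17.3% lay at 1/1.5 or less. Low genes scatter more widely, and among the 12638 genes at 1 FPKM or more in both libraries, which all 9 genes were, the shares were 3.87% and 6.77%. A count of 1 in 9 is too small to set the genes apart from either background. The ratio was above 1 for 7 of the 9 genes and for 53.5% of the genes at 1 FPKM or more. The median log2 FPKM ratio of the 9 genes was 0.23, against 0.00 over the genes above 0 in both libraries and 0.03 over those at 1 FPKM or more.

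**Figure D1:**
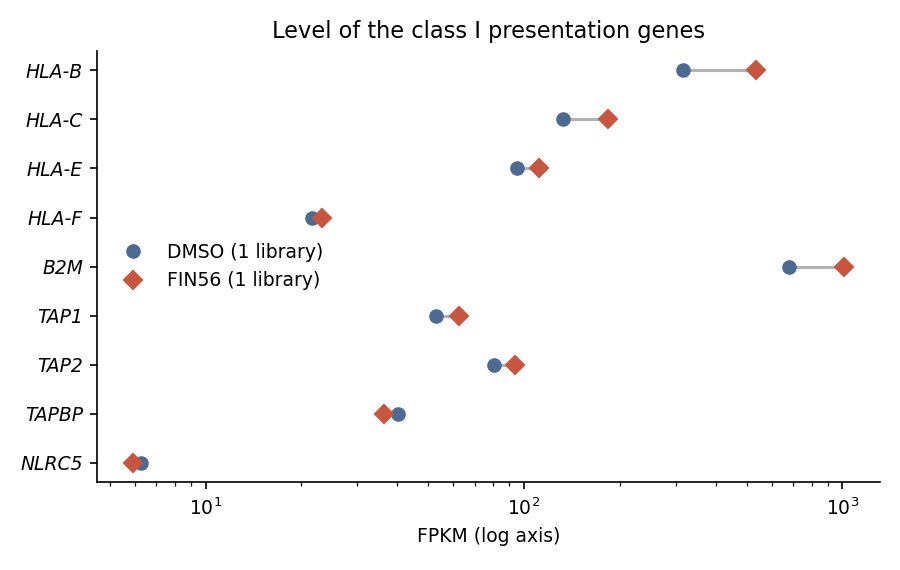
FPKM (log axis) of each class I presentation gene in the DMSO library (circles) and the FIN56 library (diamonds), 1 library each, with a line joining the values of a gene. B2M and HLA-B were the most abundant of the 9 and had the longest lines, and NLRC5 was the lowest at 6.29 and 5.92 FPKM.

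HLA-B and HLA-C encode classical heavy chains, which present peptides to T cells. HLA-B (ENSG00000234745, chr6:31353872-31367067 on GRCh38, minus strand) had 315 FPKM in DMSO and 535 in FIN56. The FPKM ratio was 1.70, and the ratio of expected counts, each divided by its library total, was 1.68 with a 95% interval of 1.66 to 1.71. This Clopper-Pearson interval covers counting error only, since copies made by PCR cannot be told from separate molecules and no error of the library scaling enters it. HLA-C (ENSG00000204525, chr6:31268749-31272130, minus strand) had 133 FPKM in DMSO and 184 in FIN56, a ratio of 1.39, with a count ratio of 1.38 (1.35 to 1.41). The gap between the genes widened: HLA-B stood at 2.38 times the FPKM of HLA-C in DMSO and at 2.91 times in FIN56.

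HLA-E and HLA-F encode nonclassical heavy chains, and HLA-E is known to present leader peptides of other class I molecules to receptors of natural killer cells. HLA-E (ENSG00000204592, chr6:30489509-30494194, plus strand) had 95.1 FPKM in DMSO and 112 in FIN56, a ratio of 1.18, with a count ratio of 1.15 (1.12 to 1.17). HLA-F (ENSG00000204642, chr6:29722775-29738528, plus strand) had 21.6 and 23.3 FPKM, a ratio of 1.08. Its count ratio of 1.03 had an interval of 0.959 to 1.11, so a difference in HLA-F was not detectable beyond counting error. Summed over the 4 heavy chains, the level was 564 FPKM in DMSO and 853 in FIN56, of which HLA-B made up 55.8% and 62.7%.

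B2M (ENSG00000166710, chr15:44711358-44718851, plus strand), the light chain that all class I heavy chains share, was the most abundant of the 9 genes, with 678 FPKM in DMSO and 1013 in FIN56. Its FPKM ratio of 1.49 lay just under the threshold of 1.5, and the interval of its count ratio, 1.47 to 1.51, held the threshold. In TPM, B2M reached 1.53, so that 2 of the 9 genes passed 1.5, as they also did with counts scaled by the median of ratios. Ranked among all genes by TPM, a transcript level scaled to the same sum in each library, B2M was at 150 in DMSO and at 101 in FIN56. HLA-B was at 282 and 176. Since HLA-B differed more than B2M, the FPKM of B2M was 2.15 times that of HLA-B in DMSO and 1.89 times in FIN56.

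HLA-B, B2M and HLA-C were also compared with other abundant genes. Of the 929 genes at 100 FPKM or more in both libraries, a level chosen after the values were seen, 15 (1.61%) reached a ratio of 1.5, HLA-B among them, and 25 lay at 1/1.5 or less. By FPKM ratio, HLA-B, B2M and HLA-C ranked 7, 16 and 32 of the 929 from the highest. These ranks describe 2 libraries and do not measure how far replicate cultures would differ.

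**Figure D2:**
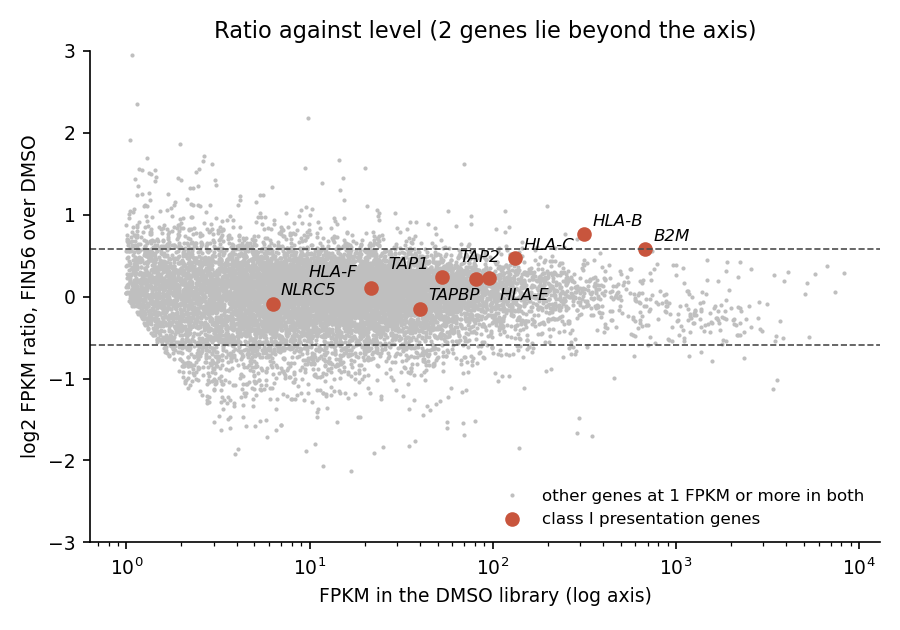
Log2 FPKM ratio of FIN56 over DMSO against FPKM in the DMSO library (log axis), for the 12638 genes at 1 FPKM or more in both libraries (grey points) with the 9 class I presentation genes marked, and dashed lines at ratios of 1.5 and 1/1.5. HLA-B lay above the upper line and B2M just under it, at levels where few genes came near it, and 2 genes lay beyond the vertical axis.

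The promoters of some of these genes are shown. Those printed include members that lie apart on the genome, and the members with the highest and the lowest FPKM ratio. RefSeq promoters on GRCh38.p14 were matched for 7 of the 9 genes: HLA-B, HLA-C, HLA-F, B2M, TAP1, TAP2 and TAPBP. Those of TAP1 and TAP2 were searched but are not printed. The 200 bases before the start were searched on both strands for the κB consensus bound by NF-κB, a single κB sequence (GGGATTCCC) whose matches can lie within those of the consensus, an interferon response type of motif (GAAANNGAA or GAANNGAAA, whose matches can overlap each other), TGACG (the core of a CREB site) and CCAAT. Each sequence is written 5′ to 3′ on the strand of the gene, with the matches on either strand in capitals.
HLA-B (chr6:31357180-31357379, minus strand): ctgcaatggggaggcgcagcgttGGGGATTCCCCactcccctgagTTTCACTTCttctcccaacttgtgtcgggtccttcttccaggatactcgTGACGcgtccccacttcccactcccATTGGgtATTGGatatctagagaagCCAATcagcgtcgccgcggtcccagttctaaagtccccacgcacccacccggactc
HLA-C (chr6:31272093-31272292, minus strand): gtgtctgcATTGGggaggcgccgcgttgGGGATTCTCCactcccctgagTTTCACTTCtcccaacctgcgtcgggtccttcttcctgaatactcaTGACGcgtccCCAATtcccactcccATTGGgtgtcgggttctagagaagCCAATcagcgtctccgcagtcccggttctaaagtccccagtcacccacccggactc
HLA-F (chr6:29723234-29723433, plus strand): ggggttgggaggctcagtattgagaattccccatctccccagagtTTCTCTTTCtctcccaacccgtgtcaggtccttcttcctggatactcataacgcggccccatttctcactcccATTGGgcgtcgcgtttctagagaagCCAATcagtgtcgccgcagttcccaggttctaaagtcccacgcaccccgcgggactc
B2M (chr15:44711317-44711516, plus strand): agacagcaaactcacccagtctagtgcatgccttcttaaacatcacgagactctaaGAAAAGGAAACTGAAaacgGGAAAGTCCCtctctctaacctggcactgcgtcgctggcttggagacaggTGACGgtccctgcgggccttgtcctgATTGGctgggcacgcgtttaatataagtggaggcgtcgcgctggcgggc
TAPBP (chr6:33314079-33314278, minus strand): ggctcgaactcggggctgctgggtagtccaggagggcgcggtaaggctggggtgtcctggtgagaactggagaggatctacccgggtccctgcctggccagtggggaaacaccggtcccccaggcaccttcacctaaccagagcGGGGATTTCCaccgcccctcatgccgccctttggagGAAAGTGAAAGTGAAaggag

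The interferon response type of motif stood in all 7 member genes with a promoter, for TAP1 at 1 of its RefSeq starts, and in 9.87% of all 35116 promoter windows of this length. Such shares are per window, and a gene such as TAP1 can have several windows, whereas members were counted as genes. TGACG was found in HLA-B, HLA-C, B2M and TAP2, against 18.4% of all windows, and CCAAT in HLA-B, HLA-C, HLA-F and B2M, against 28% of all windows. The κB consensus was found in HLA-B, HLA-C, B2M, TAP1 (again at 1 of its starts) and TAPBP, against 8.14% of all windows. The single sequence was found in HLA-B, 176 bases before the start, and in 0.282% of all windows. At the best match to this stretch of HLA-B (GGGGATTCCCC, with positions counted from its first base), HLA-C differed by C9T and HLA-F by G2A and G4A. The windows of HLA-B and HLA-C were 87.7% identical over their alignment, those of HLA-B and HLA-F 80.8%, and those of HLA-B and B2M 46.4%. A match is a description of the reference sequence. Binding at these windows was not analysed here, and any link of the motifs to the ratios was not tested.

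TAP1 and TAP2 form the peptide transporter, and their transcripts were higher in FIN56 by less than those of HLA-B, HLA-C and B2M. TAP1 (ENSG00000168394, chr6:32845209-32853816, minus strand) had 53.0 FPKM in DMSO and 62.4 in FIN56, a ratio of 1.18, with a count ratio of 1.17 (1.13 to 1.20). TAP2 (ENSG00000204267, chr6:32821833-32838739, minus strand) had 80.55 and 93.5 FPKM, a ratio of 1.16. The count ratio of TAP2 was lower, 1.08 (1.06 to 1.10). The FPKM of TAP2 stood at 1.52 times that of TAP1 in DMSO and at 1.5 times in FIN56, so by FPKM the proportion of the subunits was nearly the same, whereas the intervals of their count ratios did not overlap.

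TAPBP, the tapasin gene, and NLRC5, which is known to drive class I genes through a complex of RFX, CREB and NF-Y proteins on their promoters, were the members with ratios below 1. TAPBP (ENSG00000231925, chr6:33299694-33314284, minus strand) had 40.1 FPKM in DMSO and 36.25 in FIN56, a ratio of 0.904, with a count ratio of 0.919 (0.891 to 0.947). NLRC5 (ENSG00000140853, chr16:56989485-57083531, plus strand) was the lowest of the 9, at 6.29 and 5.92 FPKM, a ratio of 0.941. Its expected counts were 987 and 788, and the count ratio of 0.767 (0.697 to 0.843) was well below the FPKM ratio.

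The gap for NLRC5 came from the effective length by which RSEM divides, which is estimated for each library from its mix of transcripts. The effective length implied by the count and the FPKM of NLRC5 was 2236 bases in DMSO and 1822 in FIN56, a change of -18.5%. A decrease at least as large was found in 2.17% of the 12638 genes at 1 FPKM or more, and their median change was -0.259%. For TAP2 the change was -7.15%, and for the other 7 genes it lay between -4.60% (HLA-F) and 1.67% (TAPBP). FPKM and counts thus give different sizes for NLRC5 and TAP2 but the same side of 1.

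Ordered by count ratio, the genes fell into steps that counting error did not bridge. HLA-B came first, then B2M, then HLA-C, each with an interval apart from the next. TAP1 and HLA-E had overlapping intervals, as did TAP2 and HLA-F below them. TAPBP and then NLRC5 followed, each apart from its neighbours. The interval lay above 1 for 6 genes and below 1 for 2, but at this depth that is common: of the genes at 1 FPKM or more, 38.0% had an interval above 1 and 35.9% one below 1.

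**Figure D3:**
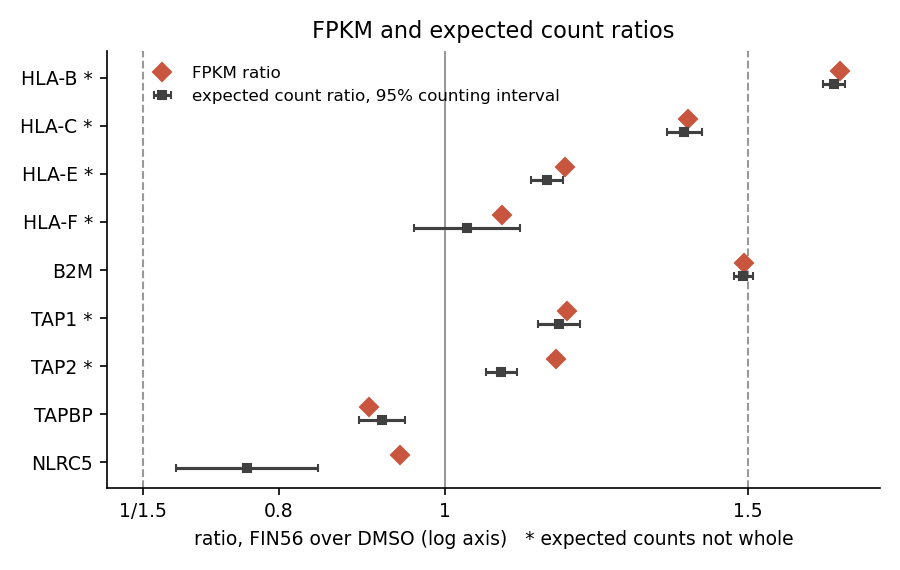
Ratio of FIN56 over DMSO (log axis) for each class I presentation gene, as the FPKM ratio (diamonds) and as the expected count ratio scaled by library totals (squares, with bars for the 95% counting interval), dashed lines at 1.5 and 1/1.5, and an asterisk on genes whose expected counts are not whole. HLA-B lies beyond 1.5 on both measures, the interval of HLA-F holds 1, and NLRC5 shows the widest gap between the measures, 0.941 against 0.767.

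Reads that match several genes are divided between them by RSEM, which leaves expected counts that are not whole. With a tolerance of 0.005, B2M, TAPBP and NLRC5 had whole expected counts in both libraries. The other 6 genes, all 4 heavy chains and both transporter subunits, did not, so part of their counts rests on how shared reads were divided, and how large that part is cannot be read from the values. Expected counts that were not whole were found in 47.3% of the genes at 1 FPKM or more. Among the 3 genes with whole counts, B2M was high at 1.49, and TAPBP and NLRC5 were below 1.

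Transcript sequences show where reads can be shared. Of the stretches of 50 bases in the canonical GENCODE transcript of each heavy chain, 2.56% in HLA-B, 6.76% in HLA-C, 6.16% in HLA-E and 1.89% in HLA-F also occurred in transcripts of other genes. Stretches shared with another of the 9 genes made up 2.22% of HLA-B and 3.75% of HLA-C. B2M and NLRC5 shared 0 such stretches with any other gene. TAP2 shared 35.3% of its stretches, and a protein-coding gene on its strand that overlaps it (ENSG00000250264) had expected counts of 428 and 271, beside 16882 and 18943 for TAP2. TAPBP shared 6.98% of its stretches with 481 genes, although its counts were whole. These shares use the reference alleles, and class I heavy chains are highly polymorphic between people and cell lines, so reads of HSC-3 alleles can fit the reference unevenly.

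Genes on the opposite strand overlap some members, and whether the counting used strand is not given in the sources used here. HLA-F-AS1, antisense to HLA-F, had 313 expected counts in DMSO and 274 in FIN56. PSMB9, a subunit of the immunoproteasome, overlaps TAP1 on the other strand and had 4924 and 5612 expected counts. The part of such overlaps in the ratios of HLA-F and TAP1 was not tested.

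Other genes of peptide supply and loading lay on both sides of 1. Of 12 such genes, all above 0 in both libraries, 1 reached a ratio of 1.5 and 1 lay at 1/1.5 or less, with 6 above 1 and 6 below and a median log2 ratio of 0.02. The 6 with the most expected counts were chaperones, proteasome activators and a peptidase. CANX and CALR, lectin chaperones of newly made heavy chains, had FPKM ratios of 0.905 and 0.822, and PDIA3, their partner in the loading complex, had 1.07. PSME2 and PSME1, subunits of a proteasome activator, had ratios of 1.12 and 0.964, and ERAP1, which trims peptides in the endoplasmic reticulum, had 43.6 FPKM in DMSO and 41.4 in FIN56. The genes past a threshold, chosen after their values were seen, were TAPBPL and PSMB10. TAPBPL, which encodes a tapasin-related peptide editor, had 9.99 FPKM in DMSO and 17.5 in FIN56, with a count ratio of 1.61 (1.49 to 1.74). PSMB10, a catalytic subunit of the immunoproteasome, had 27.2 and 17.9 FPKM, a ratio of 0.659, with a count ratio of 0.669 (0.618 to 0.723). By this count ratio, and by its TPM ratio of 0.674, PSMB10 lay just above 1/1.5. Tapasin and its relative thus differed in opposite directions, while the other catalytic subunits of the immunoproteasome, PSMB8 and PSMB9, lay at 0.909 and 1.11.

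Regulators of class I transcription lay on both sides of 1. Of 23 genes, 22 were above 0 in both libraries. Of these, 1 lay at 1.5 or more and 1 at 1/1.5 or less, and the median log2 ratio was 0.06. The shares were 14.7% and 17.3% of all genes above 0 in both libraries, and 3.87% and 6.77% of those at 1 FPKM or more. Such small counts do not set this list, or the other gene lists, apart from these backgrounds. The count interval lay above 1 for 8 regulators and below 1 for 7. RELA, a subunit of NF-κB, had the most expected counts, with 69.8 FPKM in DMSO and 96.8 in FIN56, a ratio of 1.39. NFKB1, which encodes its partner, had a ratio of 0.836. Of the interferon pathway genes, JAK1 had a ratio of 0.995, IFNGR1 one of 1.05 and IRF1 one of 1.08. IFNG, the gene of interferon gamma, was listed at 0 counts in both libraries, which allows up to 3 counts in each. IFNB1 was the gene past 1.5, at 2 and 6 expected counts, with a count ratio of 2.88 whose interval ran from 0.515 to 29.2. The gene at 1/1.5 or less was RFXANK, at 0.638, and the other subunits of the RFX complex, RFX5 and RFXAP, had ratios of 0.764 and 0.781. These genes were named after their values were seen. Their count ratios were 0.689 (0.629 to 0.753), 0.708 (0.666 to 0.752) and 0.728 (0.621 to 0.851), so by counts RFXANK lay above 1/1.5. These genes had intervals below 1, as had 35.9% of all genes at 1 FPKM or more. Their partners on class I promoters, likewise named with values in view, did not share this direction throughout: the count ratios of the NF-Y subunits were 1.11 (1.04 to 1.18) for NFYA, 0.955 (0.906 to 1.01) for NFYB and 1.10 (1.04 to 1.15) for NFYC, and that of CREB1 was 0.935 (0.901 to 0.971). By FPKM, NFYB and CREB1 lay on the other side of 1, at 1.01 and 1.04, and NFYA and NFYC at 1.08 and 1.13.

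**Figure D4:**
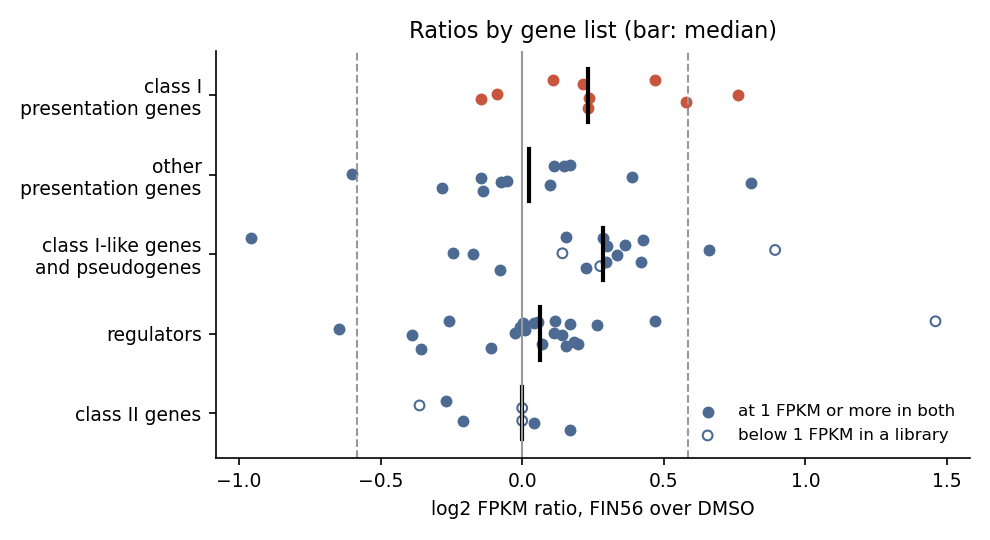
Log2 FPKM ratio of FIN56 over DMSO for the genes of each list above 0 FPKM in both libraries, with a bar at the median of the list, dashed lines at ratios of 1.5 and 1/1.5, and open circles for genes below 1 FPKM in at least 1 library. The class I presentation genes have a median of 0.23, the other presentation genes 0.02, the class I-like genes and pseudogenes 0.28, the regulators 0.06 and the class II genes 0.00.

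Class I-like genes and class I pseudogenes, 17 in all and each above 0 FPKM in both, had a median log2 ratio of 0.28, with 13 above 1, 2 at 1.5 or more and 1 at 1/1.5 or less. Over all genes above 0 in both libraries, 14.7% lay at 1.5 or more and 17.3% at 1/1.5 or less. A ratio above 1 was found in 53.5% of the genes at 1 FPKM or more, though 3 of the 17 were below that level in both libraries. The count interval held 1 for 6 of the 17. The list holds ligands of NKG2D, an activating receptor of natural killer cells. Among the 6 with the most expected counts, MICB had a ratio of 1.17 and ULBP2 one of 1.29, and MR1, which presents vitamin metabolites, had 1.23. The pseudogene HLA-H had 23.65 FPKM in DMSO and 29.8 in FIN56, and HLA-V had a ratio of 0.845. The other class I loci of the list, named after their values were seen, lay above 1, with HLA-J at 1.11, HLA-K at 1.22, HLA-L at 1.23 and the nonclassical heavy chain gene HLA-G at 1.34 (count interval 1.08 to 1.67). The count intervals of HLA-J, HLA-K and HLA-L held 1. HFE, whose product binds the transferrin receptor and takes part in the control of iron uptake, had 7.31 FPKM in DMSO and 3.76 in FIN56, a ratio of 0.514 with a count ratio of 0.547 (0.498 to 0.599). The genes at 1.5 or more were ULBP1 and ULBP3, other NKG2D ligands, at 1.86 and 1.58 and at low levels of 0.35 and 2.27 FPKM in DMSO. The remaining NKG2D ligands, named after their values were seen, lay on both sides of 1. MICA had a ratio of 0.886, with a count ratio of 0.893 (0.801 to 0.997), and RAET1G had 0.946, while RAET1E and RAET1L had 1.34 and 1.10. The count intervals of RAET1G and RAET1L held 1, and that of RAET1E ran from 1.21 to 1.76. Of these 17 genes, 14 had expected counts that were not whole.

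The class II genes, which present peptides to CD4+ T cells, lay near 1 or at low levels. Of 7 genes, 0 reached 1.5 or lay at 1/1.5 or less, and their median log2 ratio was 0.00. CD74, the invariant chain, made up most of their level, with 119.8 FPKM in DMSO and 123 in FIN56. HLA-DRB1 had 9.26 and 10.4 FPKM and HLA-DRA 2.65 and 2.29, and HLA-DMA had a ratio of 0.831. HLA-DMB, HLA-DPA1 and HLA-DPB1 were below 1 FPKM in both libraries.

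Marker genes were checked against the label of a squamous epithelial line. All 9 squamous markers were present in both libraries and summed to 5706 FPKM in DMSO and 5139 in FIN56, with KRT5 the most abundant at 2078 and 1647. Their FPKM ratio was above 1 for 4, among them KRT17 at 1.24, and below 1 for 5, among them SFN at 0.781. The 8 leukocyte markers summed to 4.38 and 5.76 FPKM, mostly CD14 (3.62 and 5.15), and PTPRC, CD3E and MS4A1 were at 0 counts in both libraries. The 6 fibroblast markers summed to 5.10 and 2.92 FPKM, mostly COL1A1 (4.25 and 2.19), with COL1A2 at 0 counts in both. The 3 endothelial markers summed to 0.08 FPKM in each library. In bulk RNA, fewer cells and less RNA per cell cannot be told apart.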

How the data were processed

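HSC-3 cells with 0.1% DMSO or 1 µM FIN56 gave 1 RNA-seq library each. The submitters' processing notes name FastQC 0.11.7, STAR 2.6.1a, RSEM 1.3.1 and DESeq2 1.26.0. The study gives its sequencing methods for tumors, on GRCh38, and these were taken to hold for these libraries. The authors deposited expected counts from RSEM, not normalized and not always whole. The FPKM deposited by the authors are scaled by library size and effective length and carry few decimals. The TPM deposited by the authors are scaled to a fixed sum. The authors also deposited regularized (rlog) values in log2 units. Each of the 8 columns carries the name of its library.

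FPKM ratios were computed for genes above 0 in both libraries and compared with 1.5 and 1/1.5 in whole hundredths of FPKM. Counts were rounded for Clopper-Pearson intervals and for edgeR 4.0.16 (TMM) and DESeq2 1.42.0 (median of ratios) scaling. Alternatives were TPM, rlog, these scalings, library totals, pseudocounts of 0.1 and 1 FPKM, a minimum of 1 FPKM, a threshold of 2, and genes with whole counts. The interval calculation was tested on simulated data. Positions and transcripts came from GENCODE release 44 on GRCh38, later than the annotation of the authors, and the comparison of transcript stretches and the promoter motifs were added after seeing the data. The members and gene lists were chosen with earlier results of these data known. From each list the 6 genes with the most expected counts were named, and others as stated, except that some are not reported here. The software was R 4.3.3 and Python 3.11.15 (numpy 2.4.6, pandas 2.3.3, scipy 1.17.1, matplotlib 3.10.9).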

Additional observations from a re-analysis of the deposited data

How the results depend on the processing

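All 9 genes kept their side of 1, 7 above and 2 below, under each of the 7 other units, scalings and pseudocounts. Without the rlog values, which are shrunken by construction, ratios ran from 1.68 to 1.74 for HLA-B, from 1.49 to 1.53 for B2M, from 1.38 to 1.42 for HLA-C, and from 0.766 to 0.961 for NLRC5. Because B2M lay so near the threshold, the number of genes at 1.5 or more, 1 in the main analysis, became 2 with TPM and 2 with median-of-ratios scaling. It was 0 with rlog values, 0 at a threshold of 2, and 0 among the 3 genes with whole counts, which leave out HLA-B. No gene lay at 1/1.5 or less under any alternative. The median log2 ratio of 0.23 moved to 0.26 with TPM and to 0.10 with rlog values, and turned to -0.087 over the 3 genes with whole counts, of which TAPBP and NLRC5 make up the lower side.

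The share of all genes at 1.5 or more, 14.7%, was 15.6% with TPM, 0.0286% with rlog values, 13.7% with TMM, 13.8% with library totals, 9.54% and 1.59% with pseudocounts of 0.1 and 1 FPKM, 3.87% with a minimum of 1 FPKM in both, and 8.54% at a threshold of 2. No paired analysis was possible because DMSO and FIN56 have 1 library each, which also leaves no replicate to leave out. Intervals were wide for IFNB1 and for the class II genes at few counts. HLA-F, with a count ratio of 1.03, had an interval that held 1. The lack of replicates limits every gene, HLA-B and B2M included.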

Other observations

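Other genes in the neighbourhood of the class I genes on chromosome 6 had a median ratio below that of all genes. Between HLA-F and TAPBP (chr6:29722775-33314284), which holds 7 of the 9 genes, 309 other genes were listed and 103 of them had 1 FPKM or more in both libraries. Their median log2 FPKM ratio was -0.13, against 0.03 over all genes at that level. Of the 103, 42 had a ratio above 1 and 61 below, whereas 53.5% of all genes at that level lay above 1. A ratio of 1/1.5 or less was found in 13 (12.6%), against 6.77% of all genes at that level. A ratio of 1.5 or more was found in 1 gene (0.971%), against 3.87%. That gene, AL662899.2, was named after its values were seen and had 1.13 FPKM in DMSO and 1.87 in FIN56. Its expected counts, 177 in DMSO and 267 in FIN56, fell short of a ratio of 1.5 when scaled by library totals. With 1 library per group, none of these differences of the region from all genes has a replicate check.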
